A study of Mus musculus with 3 samples.

Results

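Immediate early genes and heat shock genes were followed through the immune cells of the healthy mouse kidney, which 3 facilities had profiled cell by cell with 10x droplet RNA sequencing. The 40 genes were given by name and make up 40 of the 32886 genes of the deposited count table. They comprise 6 AP-1 genes, Atf3 included, 12 genes of the EGR, IER, NR4A and KLF families, 13 genes of the feedback arm (phosphatases, mRNA decay factors and inhibitors of signalling) and 9 heat shock genes. The question was how far their levels followed the facility at which the cells were prepared and how far they followed the cell type.

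The table holds 20266 CD45+ cells of male, wildtype C57BL/6J mice aged 10 weeks that had received no treatment. After perfusion with ice-cold PBS the kidneys were cut by hand into the cortex, the OM (outer medulla) and the IM (inner medulla), each was digested with collagenase and DNase, and live CD45+ cells were sorted. Aachen, Bonn and Hamburg each prepared the 3 compartments, which gives 9 libraries with 7147, 6158 and 6961 cells per facility, and the cells carry the authors' 23 cluster names. The Aachen dataset was made with version 2 of the 10x chemistry, and the Bonn and Hamburg datasets with version 3. The labels give 1 GEO sample per compartment and the facility is recorded for each cell, so the replicates of a facility in what follows are its 3 compartments, and p-values measure the spread between those libraries only. Facility and mice changed together in every comparison of facilities, and sequencing depth changed with them, least between Bonn and Hamburg. Chemistry changed only in comparisons with Aachen, and the correction applied to the counts only in those with Hamburg. What changed together in a comparison cannot be told apart.

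Immediate early genes are transcribed within minutes of a stimulus, without new protein synthesis, from promoters held ready by factors such as CREB and the serum response factor. Their products are transcription factors and feedback inhibitors that shut the same signalling down. Heat shock genes encode chaperones that bind unfolded proteins, and their promoters are switched on by heat shock factor. Both programmes are known to be induced by enzymatic digestion and warming of tissue, and both also have activity of their own in resident macrophages and lymphocytes.

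The libraries held between 2122809 and 15267126 UMIs (unique molecular identifiers) and between 621 and 3677 cells. The median cell had 887 UMIs in Aachen, 3290.5 in Bonn and 2943.9 in Hamburg. All nonzero values were whole in Aachen and Bonn, whereas in Hamburg 0.118% of the nonzero values were whole. No pair of libraries shared more than 16 cell barcodes. Cells were summed per library into resident macrophages, T cells and B cells, which gave 27 sums of at least 118 cells each. Macrophage markers stood at 226 to 420 per 10000 UMIs in the macrophage sums, at 13.5 to 36.8 in the T cell sums of Aachen and at 0.631 to 2.03 in those of Bonn and Hamburg. T cell markers ran from 29.4 to 51.5 per 10000 in T cells, and B cell markers from 60.8 to 113 in B cells. Kidney epithelial markers were highest in the Bonn IM library, at 14.2 per 10000 UMIs against 0.158 to 3.52 elsewhere. In the summed counts, fewer cells of a subtype and less RNA per cell cannot be told apart.

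The promoters of 7 members are shown because they carry the elements through which these genes are known to be induced together. They are the 250 bases before the start site from RefSeq on GRCm38.p6, which gave an entry for 34 of the 40 members. The heat shock element was searched as GAANNTTC, the cyclic AMP response element (CRE) as TGACGTCA, the AP-1 site as TGANTCA and the serum response element as the CArG box. Each of these reads the same on both strands, so that 1 search covered both, and the letters of none contain those of another. The heat shock element lay in 5 of the 34 promoters (Hspa1a, Hspa1b, Hspb1, Hspe1 and Jun) and in 6.69% of all 32851 promoters. The CRE lay in 3 (Dusp1, Btg2 and Ppp1r15a) against 1.55% of all, the CArG box in 2 (Dusp5 and Zfp36) against 1.47%, and the AP-1 site in Tnfaip3 alone against 6.75%. Capitals below mark the heat shock element in Hspa1a (chr17:34972157-34972406, minus strand), Hspa1b (chr17:34959239-34959488, minus strand), Hspe1 (chr1:55087898-55088147, plus strand), Hspb1 (chr5:135887669-135887918, plus strand) and Jun (chr4:95052223-95052472, minus strand), the CRE in Dusp1 (chr17:26508473-26508722, minus strand) and the CArG box in Zfp36 (chr7:28379229-28379478, minus strand).
Hspa1a: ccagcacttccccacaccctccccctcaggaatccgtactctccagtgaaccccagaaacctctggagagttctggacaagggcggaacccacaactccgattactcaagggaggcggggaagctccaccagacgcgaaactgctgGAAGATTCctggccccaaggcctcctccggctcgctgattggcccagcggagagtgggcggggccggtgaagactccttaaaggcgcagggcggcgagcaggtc
Hspa1b: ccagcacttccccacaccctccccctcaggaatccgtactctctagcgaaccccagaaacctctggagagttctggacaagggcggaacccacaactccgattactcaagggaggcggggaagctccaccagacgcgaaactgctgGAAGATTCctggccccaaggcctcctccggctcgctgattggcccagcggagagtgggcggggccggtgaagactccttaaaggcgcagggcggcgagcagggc
Hspe1: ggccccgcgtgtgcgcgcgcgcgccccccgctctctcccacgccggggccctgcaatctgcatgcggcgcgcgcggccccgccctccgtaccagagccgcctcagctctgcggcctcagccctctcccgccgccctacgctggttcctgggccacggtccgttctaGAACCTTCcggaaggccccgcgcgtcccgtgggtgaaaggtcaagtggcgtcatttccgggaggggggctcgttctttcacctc
Hspb1: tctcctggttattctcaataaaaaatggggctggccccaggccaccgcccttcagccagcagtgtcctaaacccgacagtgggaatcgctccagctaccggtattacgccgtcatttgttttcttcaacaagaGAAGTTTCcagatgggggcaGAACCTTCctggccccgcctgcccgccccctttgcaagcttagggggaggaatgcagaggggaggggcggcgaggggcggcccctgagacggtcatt
Jun: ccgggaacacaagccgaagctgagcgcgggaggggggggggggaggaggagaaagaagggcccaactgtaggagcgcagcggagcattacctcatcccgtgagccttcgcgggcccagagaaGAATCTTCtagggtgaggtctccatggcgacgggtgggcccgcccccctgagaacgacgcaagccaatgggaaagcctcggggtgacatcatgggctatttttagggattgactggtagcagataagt
Dusp1: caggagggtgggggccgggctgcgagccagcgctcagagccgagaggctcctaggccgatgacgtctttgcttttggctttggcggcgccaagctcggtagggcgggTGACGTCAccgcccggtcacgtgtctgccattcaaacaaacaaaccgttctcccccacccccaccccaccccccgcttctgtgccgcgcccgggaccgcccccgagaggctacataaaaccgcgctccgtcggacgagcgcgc
Zfp36: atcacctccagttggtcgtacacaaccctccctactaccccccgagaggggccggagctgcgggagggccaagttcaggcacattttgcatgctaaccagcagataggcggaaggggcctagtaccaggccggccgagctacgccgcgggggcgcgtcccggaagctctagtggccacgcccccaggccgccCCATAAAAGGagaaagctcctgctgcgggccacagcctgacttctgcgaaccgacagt
The windows of Hspa1a and Hspa1b, neighbouring genes that encode nearly the same inducible HSP70 protein, were identical at 247 of 250 bases, and in both the element began 104 bases before the start. It began 84 bases before the start of Hspe1, 117 and 97 bases before that of Hspb1 and 128 bases before that of Jun. A match is a description of the sequence and not of occupancy.

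Summed over each library, the 40 genes took 404, 284 and 311 of every 10000 UMIs in cortex, OM and IM of Aachen, 101, 126 and 189 in Bonn, and 613, 559 and 526 in the Hamburg libraries. All 3 Bonn libraries were below all 3 Aachen libraries, and these were below all 3 Hamburg libraries. The order was also seen in each class. In resident macrophages the 31 immediate early and feedback genes took 42.7 to 139 per 10000 UMIs in Bonn, 170 to 280 in Aachen and 500 to 567 in Hamburg. In T cells they took 55.1 to 98.9, 141 to 214 and 271 to 331, and in B cells 72.2 to 101, 182 to 294 and 355 to 387. The 9 heat shock genes took 35.2 to 67.4 per 10000 in Bonn macrophages, 109 to 197 in Aachen and 224 to 288 in Hamburg. Their range was 45.8 to 60.4, 93.1 to 134 and 180 to 236 in T cells, and 34.7 to 41.2, 96.7 to 145 and 204 to 209 in B cells, so that neither group of genes overlapped between facilities in any class.

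**Figure D1:**
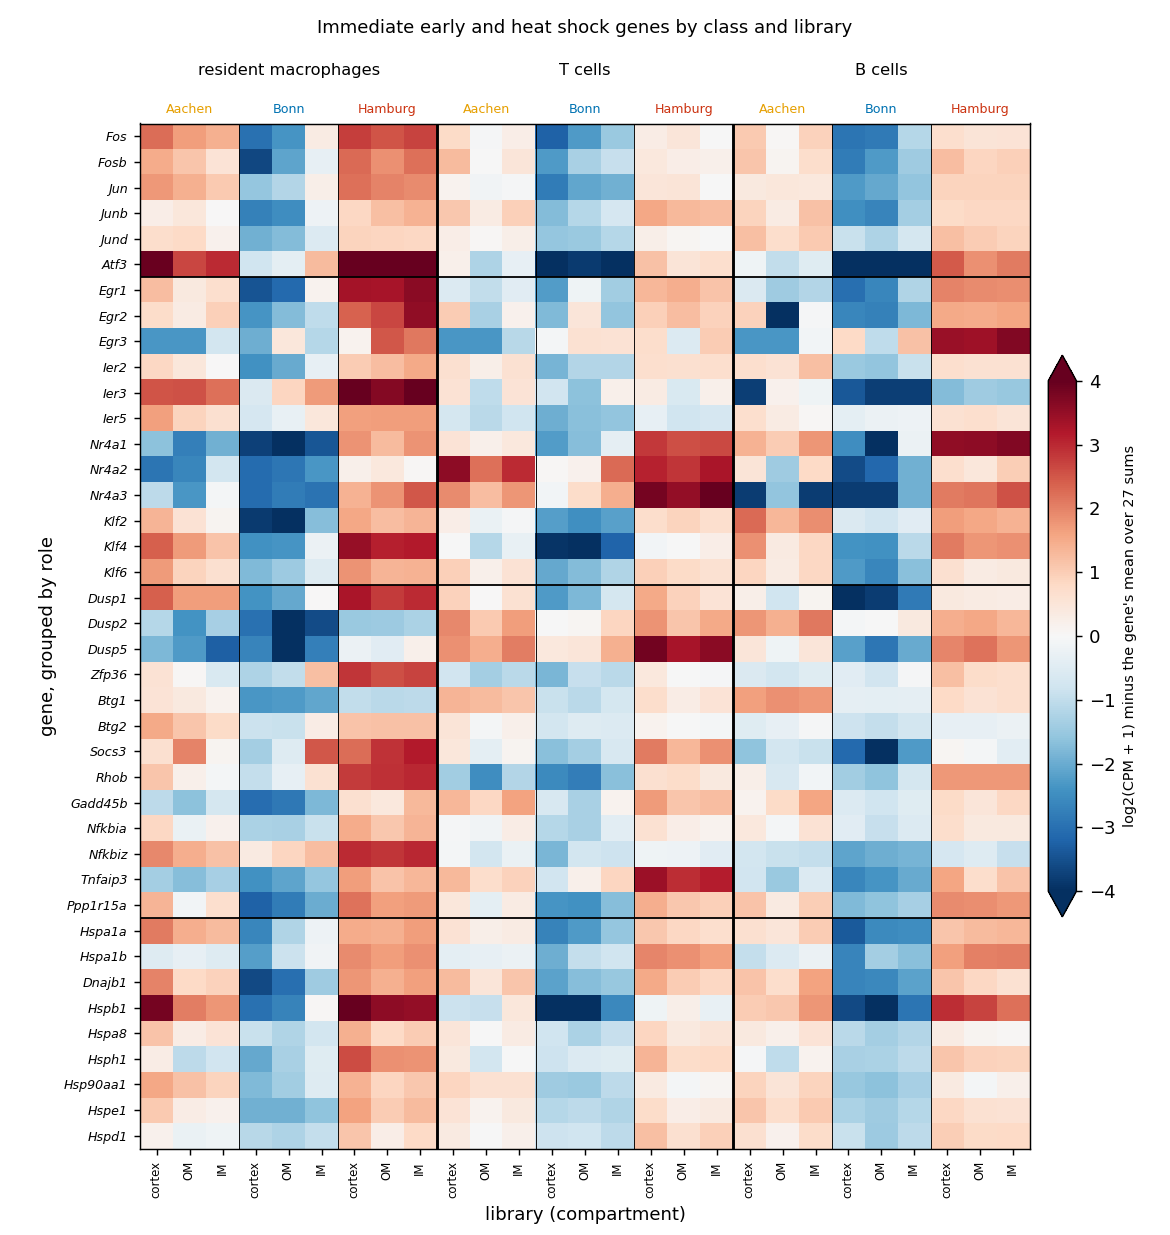
Heat map of the 40 genes, grouped by role, in the 27 sums of resident macrophages, T cells and B cells. Columns are the cortex, OM and IM libraries of each facility, and colour gives log2(CPM + 1) minus the gene's mean over the 27 sums, limited to 4 units in either direction. The Bonn columns are the low ones in all 3 classes, and in macrophages the Bonn IM column is higher than its neighbours for 36 of 40 genes.

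The facilities were compared within each class with edgeR's quasi-likelihood test. All 40 genes differed between facilities in resident macrophages, where 53.7% of the genes tested did. In T cells 38 of the 39 genes tested did (53.8% of all genes), Ier3 being the exception and Egr3 falling under the filter on low counts, and in B cells 40 of 40 did (48.3%). The direction was shared by nearly all of them. Bonn was lower than Hamburg for 40 of 40 genes in macrophages, against 8.33% of all genes lower and 12.8% differing in either direction. The same held for 38 of 39 genes in T cells (10.9% lower, 19.0% in either direction) and for 40 of 40 in B cells (12.8% and 22.3%). The median log2 difference between Bonn and Hamburg was -3.16 in macrophages, -2.4 in T cells and -2.95 in B cells, beside medians of 0.00338, 0.0162 and 0.00771 over all genes. The libraries themselves rarely overlapped. All 3 Bonn libraries lay below all 3 Hamburg libraries for 38 genes in macrophages (13.9% of all genes), 38 in T cells (18.8%) and 40 in B cells (19.6%).

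Aachen was higher than Bonn for 31 of 40 genes in macrophages, where 23.7% of all genes were higher and 47.1% differed in either direction. In T cells 36 of 39 were higher (21.5% and 41.6%) and in B cells 37 of 40 (16.6% and 34.7%). The medians of the members were 1.99, 1.72 and 2.25, beside -0.0135, -0.0393 and -0.16 over all genes. Between Aachen and Hamburg the shares were nearer to those of all genes. The facilities differed for 25 of 40 genes in macrophages (46.4% of all), 17 of 39 in T cells (48.9%) and 20 of 40 in B cells (38.8%). Of these, 24, 15 and 16 were lower in Aachen, beside 24.5%, 25.1% and 21.6% of all genes. Btg1, an antiproliferative gene of quiescent lymphocytes, was higher in Aachen in all 3 classes. The comparisons share libraries with each other, so their values are given side by side and were not correlated.

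Among the AP-1 genes, whose products pair into the dimers that bind the AP-1 site, Bonn was lower than Hamburg for 6 of 6 in each class, with medians of -3.3, -2.45 and -2.91 on the log2 scale in macrophages, T cells and B cells. Values below are CPM (counts relative to the library total, scaled by TMM over the 27 sums), given as cortex, OM and IM. They are given for the genes with the highest mean CPM of each role. Further genes, Fos among them, were picked as described under the processing of the data. Fos, the inducible partner of the JUN proteins, gave 5460, 3700 and 3110 CPM in cortex, OM and IM of the Aachen dataset, 146, 224 and 1440 in Bonn and 7930, 6590 and 7550 in Hamburg in macrophages. The 2 lower Bonn libraries were more than 10-fold below every Aachen and Hamburg library, and Bonn IM was the highest of its facility. In T cells Fos gave 1980, 1130 and 1380 CPM for Aachen, 123, 237 and 408 for Bonn and 1420, 1630 and 1150 for Hamburg. In B cells it gave 2400, 1200 and 2210 CPM for Aachen, 152, 162 and 523 for Bonn and 1830, 1640 and 1700 for Hamburg. Bonn overlapped with neither facility in any class, whereas Aachen and Hamburg overlapped in T and B cells. The log2 difference between Bonn and Hamburg was -4.07 ± 0.58 (SE, edgeR adjusted p = 0.000168) for macrophages, -2.46 ± 0.33 for T cells and -2.81 ± 0.30 for B cells, and the one between Aachen and Hamburg macrophages, -0.80 ± 0.49 (SE, edgeR adjusted p = 0.202), did not pass.

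Jun, the AP-1 subunit whose promoter carries the heat shock element shown above, gave 5190, 4140 and 3220 CPM for Aachen, 528, 686 and 1810 for Bonn and 7170, 6080 and 5800 for Hamburg in macrophages. It gave 1710, 1420 and 1500 CPM for Aachen, 223, 369 and 411 for Bonn and 2190, 2210 and 1530 for Hamburg in T cells. B cells had 2050, 2120 and 2060 CPM for Aachen, 323, 372 and 513 for Bonn and 2880, 2860 and 2880 for Hamburg. Bonn was below all other libraries in each class, and the Aachen and Hamburg libraries lay apart in B cells and in macrophages, with Hamburg higher. The difference between Bonn and Hamburg was -2.78 ± 0.34 (SE, edgeR adjusted p = 4.25e-05) in macrophages, -2.52 ± 0.22 in T cells and -2.86 ± 0.14 in B cells. Jund, the AP-1 subunit with the steadiest basal expression, gave 3580, 3810 and 2460 CPM for Aachen, 581, 651 and 1480 for Bonn and 4040, 3940 and 3900 for Hamburg in macrophages. T cells had 2650, 2260 and 2590 CPM for Aachen, 754, 787 and 984 for Bonn and 2560, 2310 and 2170 for Hamburg. The B cell levels were 4990, 3530 and 4560 CPM for Aachen, 1170, 936 and 1330 for Bonn and 5070, 4380 and 4040 for Hamburg. Aachen and Hamburg overlapped in T and B cells, and Bonn stood below both throughout. The Jund difference between Aachen and Bonn was 1.96 ± 0.28 (SE, edgeR adjusted p = 3.67e-05) in macrophages and that between Bonn and Hamburg -2.23 ± 0.28 (SE, edgeR adjusted p = 4.72e-05). Junb, the AP-1 subunit of activated lymphocytes, gave 3360, 1990 and 3060 CPM for Aachen, 479, 712 and 989 for Bonn and 4640, 3860 and 3720 for Hamburg in T cells, and Bonn minus Hamburg was -2.45 ± 0.23 (SE, edgeR adjusted p = 7.81e-07). Atf3, a stress-induced repressor that joins AP-1 dimers, was at 4880, 3060 and 4000 CPM in Hamburg macrophages and at 60.9, 80.7 and 260 in Bonn, while the B cells of Bonn held 3, 2 and 8 UMIs of it in all against 591, 385 and 452 CPM in those of Hamburg.

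In the EGR, IER, NR4A and KLF families, transcription factors and early response proteins, Bonn was lower than Hamburg for 12 of 12 genes in macrophages, 10 of 11 in T cells and 12 of 12 in B cells, with medians of -3.92, -2.4 and -3.76. Klf2, which keeps lymphocytes quiescent and steers their trafficking, gave 4400, 2570 and 1860 CPM for Aachen, 119, 89.4 and 525 for Bonn and 4980, 4060 and 4380 for Hamburg in macrophages. It gave 2080, 1440 and 1680 CPM for Aachen, 374, 311 and 381 for Bonn and 2770, 3210 and 2720 for Hamburg in T cells. In B cells the levels were 8220, 4270 and 6190 CPM for Aachen, 1140, 1000 and 1260 for Bonn and 5420, 5050 and 4500 for Hamburg. Bonn lay below both other facilities in all classes, and the spread between facilities was wider in macrophages than in lymphocytes. Bonn minus Hamburg was -4.44 ± 0.50 (SE, edgeR adjusted p = 1.87e-05) in macrophages, -2.97 ± 0.15 (SE, edgeR adjusted p = 6.47e-10) in T cells and -2.15 ± 0.16 (SE, edgeR adjusted p = 8.63e-08) in B cells. Klf6, a zinc finger factor of the early response, gave 2700, 1540 and 1300 CPM for Aachen, 244, 303 and 585 for Bonn and 2870, 2150 and 2170 for Hamburg in macrophages. T cells had 1600, 944 and 1240 CPM for Aachen, 201, 251 and 358 for Bonn and 1600, 1420 and 1270 for Hamburg, and the B cells had 1490, 1050 and 1460 CPM for Aachen, 170, 134 and 262 for Bonn and 1300, 1050 and 1080 for Hamburg. The Aachen and Hamburg libraries of Klf6 overlapped in all 3 classes, and Aachen minus Hamburg in macrophages was -0.40 ± 0.28 (SE, edgeR adjusted p = 0.27). Ier5, an early response gene tied to heat shock factor activity, gave 1520, 902 and 770 CPM for Aachen, 309, 400 and 671 for Bonn and 1520, 1560 and 1570 for Hamburg in macrophages. It stood at 303, 232 and 281 CPM for Aachen, 125, 152 and 164 for Bonn and 388, 284 and 307 for Hamburg in T cells. Ier5 in B cells gave 778, 617 and 502 CPM for Aachen, 372, 414 and 423 for Bonn and 756, 784 and 695 for Hamburg. Bonn was below both other facilities for Ier5 in each class, by -1.80 ± 0.27 (SE, edgeR adjusted p = 0.00028) against Hamburg in macrophages.

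Ier3, an early response gene that restrains apoptosis, was the only member tested that did not pass between facilities in T cells, where it gave 19, 5.67 and 18.7 CPM for Aachen, 6.97, 3.34 and 14.6 for Bonn and 15.8, 7.88 and 14.6 for Hamburg. In macrophages Ier3 gave 76.8, 78.4 and 60.7 CPM for Aachen, 8.03, 23.3 and 43.2 for Bonn and 300, 173 and 231 for Hamburg. Its 3 facilities overlapped in T cells, where Bonn minus Hamburg was -0.73 ± 0.31 (SE, edgeR adjusted p = 0.112), and did not in macrophages, where it was -3.33 ± 0.36 (SE, edgeR adjusted p = 1.48e-05). Low counts limit the T cell test, since Ier3 held 9, 2 and 14 UMIs in Aachen T cells and 37, 2 and 20 in Bonn. Nr4a1, the orphan nuclear receptor that reports antigen receptor signalling in lymphocytes, gave 391, 301 and 510 CPM for Aachen, 25.9, 5.93 and 127 for Bonn and 1740, 1770 and 1950 for Hamburg in B cells and 217, 170 and 198 CPM for Aachen, 30.9, 45.1 and 115 for Bonn and 1060, 898 and 925 for Hamburg in T cells. The Bonn IM library was its highest Bonn library in both, and all Hamburg libraries were above all others.

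In the feedback arm Bonn was lower than Hamburg for 13 of 13 genes in each class, with medians of -2.88, -1.89 and -1.36. Dusp1, the phosphatase that inactivates MAP kinases and carries the CRE shown above, gave 3420, 2080 and 2110 CPM for Aachen, 125, 159 and 671 for Bonn and 6330, 4540 and 5230 for Hamburg in macrophages. T cells had 1260, 672 and 1010 CPM for Aachen, 135, 187 and 406 for Bonn and 1870, 1240 and 956 for Hamburg. In B cells it gave 768, 380 and 708 CPM for Aachen, 39.4, 46 and 92 for Bonn and 858, 823 and 813 for Hamburg. The 3 facilities were separate in macrophages and in B cells, and Aachen overlapped with Hamburg in T cells. Bonn minus Hamburg was -4.33 ± 0.45 (SE, edgeR adjusted p = 9.22e-06) in macrophages, -2.48 ± 0.34 in T cells and -3.92 ± 0.26 in B cells. Zfp36, the RNA-binding protein tristetraprolin that degrades AU-rich mRNAs, had another pattern. It gave 965, 663 and 425 CPM for Aachen, 273, 322 and 1480 for Bonn and 4650, 3870 and 4240 for Hamburg in macrophages. T cells had 377, 252 and 302 CPM for Aachen, 182, 341 and 307 for Bonn and 870, 643 and 618 for Hamburg. Zfp36 in B cells stood at 432, 387 and 462 CPM for Aachen, 469, 378 and 620 for Bonn and 1480, 1080 and 1020 for Hamburg. Here Aachen overlapped with Bonn in all 3 classes, and Hamburg was above both in each of them. The difference between Aachen and Bonn was 0.29 ± 0.47 (SE, edgeR adjusted p = 0.637) in macrophages, 0.21 ± 0.24 (SE, edgeR adjusted p = 0.532) in T cells and -0.12 ± 0.17 (SE, edgeR adjusted p = 0.63) in B cells, none of which passed, and that between Aachen and Hamburg was -2.59 ± 0.45 (SE, edgeR adjusted p = 0.00028) in macrophages. Btg1 gave 1780, 1600 and 1350 CPM for Aachen, 245, 253 and 290 for Bonn and 621, 576 and 588 for Hamburg in macrophages. In T cells Btg1 stood at 3120, 2950 and 2650 CPM for Aachen, 668, 582 and 746 for Bonn and 1990, 1500 and 1780 for Hamburg and in B cells at 3850, 4370 and 4090 CPM for Aachen, 950, 935 and 951 for Bonn and 2120, 1840 and 1960 for Hamburg. Aachen was the highest facility for Btg1 in every class, by 1.40 ± 0.15 (SE, edgeR adjusted p = 2.52e-06) over Hamburg in macrophages, 0.79 ± 0.12 in T cells and 1.12 ± 0.09 in B cells. Bonn was the lowest.

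Among the heat shock genes Bonn was lower than Hamburg for 9 of 9 in each class, with medians of -2.81, -1.81 and -2.22. Hspa8, the constitutive HSC70 chaperone, gave 7530, 4210 and 5000 CPM for Aachen, 1850, 1500 and 2050 for Bonn and 9090, 6000 and 6860 for Hamburg in macrophages. T cells had 4740, 3420 and 4280 CPM for Aachen, 1980, 1410 and 1820 for Bonn and 6160, 4530 and 4850 for Hamburg. The B cells gave 4460, 3940 and 5050 CPM for Aachen, 1630, 1330 and 1510 for Bonn and 4330, 3700 and 3540 for Hamburg. Bonn was lowest in each class, at -2.03 ± 0.15 (SE, edgeR adjusted p = 3.71e-07) against Hamburg in macrophages. Dnajb1, the HSP40 partner that delivers clients to HSP70, gave 4090, 1820 and 1980 CPM for Aachen, 85.3, 129 and 391 for Bonn and 3510, 2810 and 3230 for Hamburg in macrophages. In T cells it gave 2530, 1450 and 2250 CPM for Aachen, 236, 316 and 363 for Bonn and 2950, 2130 and 1840 for Hamburg and in B cells 2280, 1690 and 3190 CPM for Aachen, 165, 175 and 235 for Bonn and 2270, 1860 and 1600 for Hamburg. Aachen and Hamburg overlapped in all 3 classes, while Bonn minus Hamburg was -4.12 ± 0.43 (SE, edgeR adjusted p = 9.93e-06) in macrophages.

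Hspa1a gave 8720, 5640 and 4990 CPM for Aachen, 339, 888 and 1780 for Bonn and 5760, 5550 and 6570 for Hamburg in macrophages. It gave 3090, 2430 and 2590 CPM for Aachen, 322, 426 and 706 for Bonn and 4380, 3690 and 3290 for Hamburg in T cells and 3250, 2920 and 4180 CPM for Aachen, 200, 350 and 367 for Bonn and 4470, 5010 and 5150 for Hamburg in B cells. Its neighbour Hspa1b gave 551, 639 and 560 CPM for Aachen, 172, 437 and 728 for Bonn and 2920, 2550 and 2840 for Hamburg in macrophages and 411, 549 and 671 CPM for Aachen, 127, 312 and 249 for Bonn and 2500, 3250 and 3290 for Hamburg in B cells. Between Aachen and Hamburg macrophages Hspa1a did not pass, at 0.16 ± 0.36 (SE, edgeR adjusted p = 0.755), and Hspa1b was lower in Aachen, at -2.27 ± 0.30 (SE, edgeR adjusted p = 2.53e-05). The ratio of Hspa1a to Hspa1b UMIs was 3.83 to 15.8 over the 9 Aachen sums, 1.05 to 2.45 in Bonn and 1.3 to 2.31 in Hamburg. Reads of these near-identical genes could be assigned to either, so their separate values are uncertain, and the part of the assignment in the ratio was not tested. Hspb1, a small heat shock protein with 2 heat shock elements in its window, ranged from 10.8, 13.6 and 94.5 CPM in Bonn macrophages to 1620, 1120 and 1060 in those of Hamburg.

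**Figure D2:**
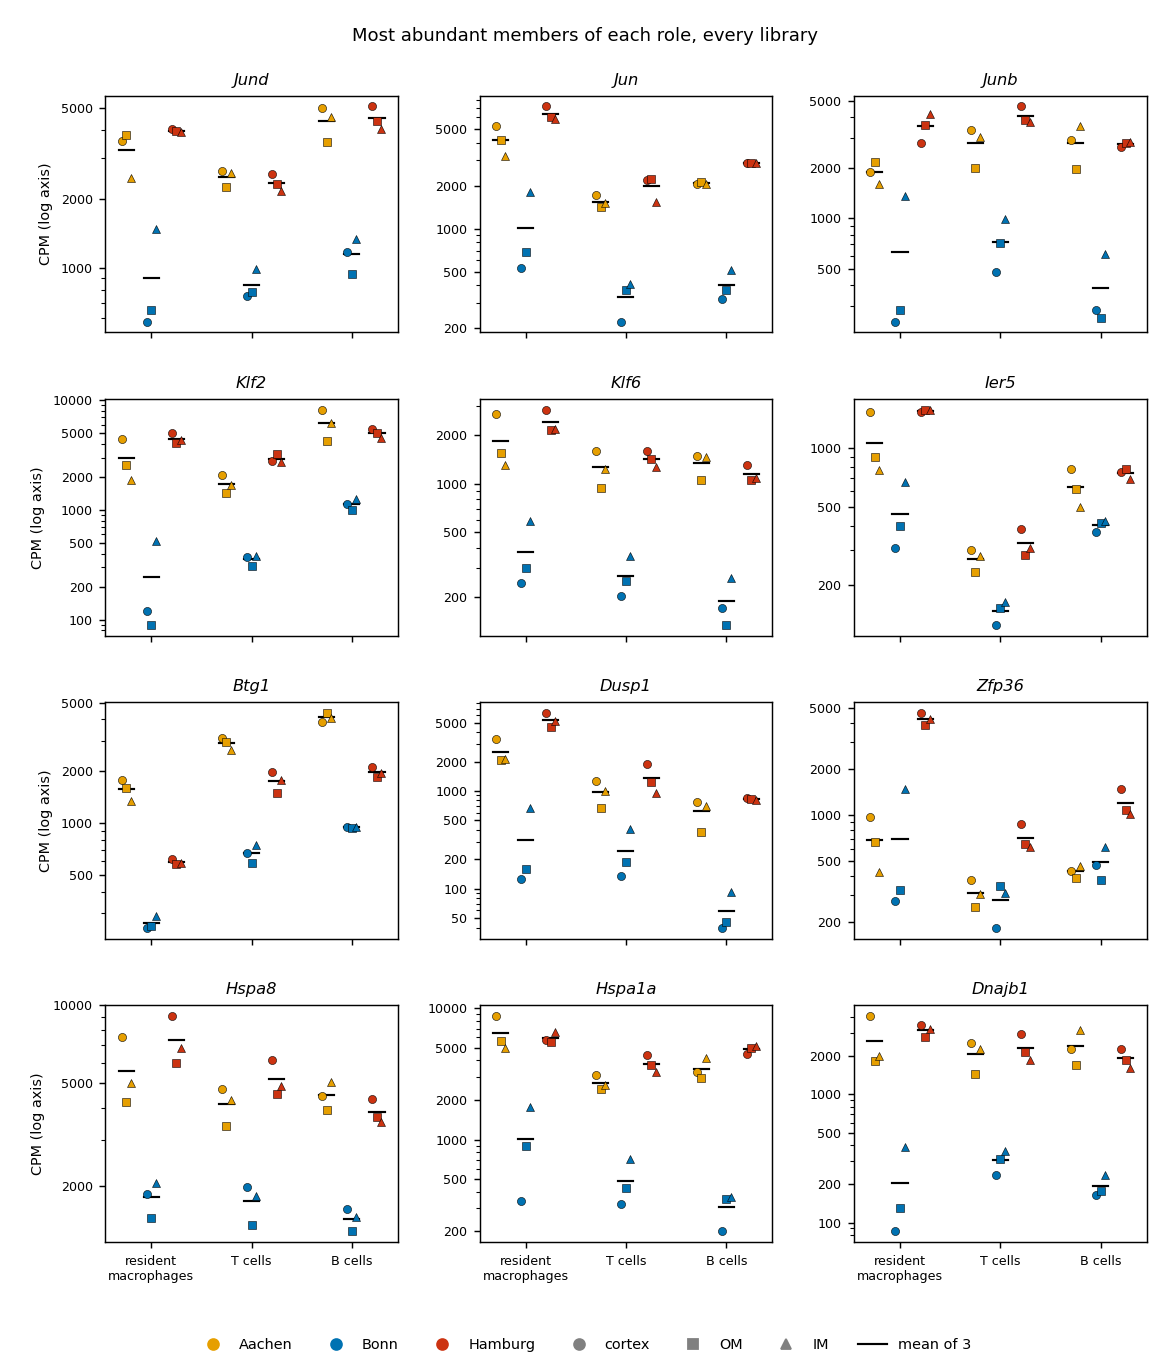
CPM on a log axis of the 12 genes with the highest mean level of each role, in every library of resident macrophages, T cells and B cells. Colour gives the facility, the marker's shape the compartment and the bar the mean of 3 libraries. The Bonn points lie lowest for all genes except Zfp36, for which Bonn and Aachen overlap.

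Where Aachen stood between the other facilities differed by gene. With Bonn set to 0 and Hamburg to 100 on the log2 scale, the median position of Aachen was 69.2 in macrophages, 84.5 in T cells and 88.2 in B cells. It was above 80 in all 3 classes for 9 genes (Btg1, Btg2, Dnajb1, Dusp2, Fos, Hsp90aa1, Hspa1a, Jund and Klf6). It was below 50 in all 3 for 7 (Egr1, Hspa1b, Hsph1, Nr4a3, Rhob, Tnfaip3 and Zfp36). For Nr4a3 the position in macrophages and B cells rested on counts near the floor. Aachen B cells held 0, 1 and 0 of its UMIs in cortex, OM and IM, and Bonn B cells 0, 0 and 5. Aachen macrophages held 3, 2 and 6, and Bonn macrophages 2, 1 and 3. Shares of all genes were not counted, neither for positions above 80 nor for those below 50 in all 3 classes. Tnfaip3, the A20 inhibitor of NF-kappaB signalling, was among the latter, at 39.3, 30.7 and 40.4 CPM in Aachen macrophages against 18.5, 23.3 and 34.4 in Bonn and 329, 229 and 263 in Hamburg. Barcodes of each Aachen compartment carried 2 suffixes, whose meaning is not given in the sources used here, and the 40 genes together took 575 and 363 per 10000 UMIs in the cortex macrophages of the 2 suffixes, 271 and 336 in OM and 284 and 295 in IM.

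Within Bonn the IM library stood above the other libraries. It was the highest Bonn library for 36 of 40 genes in macrophages (30.1% of all genes), 29 in T cells (23.3%) and 35 in B cells (26.3%). It was at least 2-fold above the mean of Bonn cortex and OM for 24 genes in macrophages, against 1.26% of all genes, for 9 in T cells (2.03%) and for 11 in B cells (2.18%). The ratio reached 10.6 in macrophages, and its median over the 40 genes was 2.23, beside 1.54 in T cells and 1.38 in B cells. Socs3, the inhibitor of cytokine receptor signalling, gave 18.5, 34 and 275 CPM in Bonn macrophages, and Egr1 gave 19.5, 25.3 and 246, with IM the high library in both. The cluster Macrophage_1 had the highest level of most of these genes among the resident macrophage clusters. It made up 44.4% of the resident macrophages of Bonn IM (Wilson 95% interval 40.6 to 48.3, counting error only). Its share was 17.9% in Bonn OM (12.8 to 24.3) and 4.45% in Bonn cortex (3.01 to 6.54). Kidney epithelial markers were also highest in Bonn IM, and the part of either in these levels was not tested. Without Bonn IM, Bonn was lower than Hamburg for 40, 39 and 39 genes in macrophages, T cells and B cells, with medians of -3.74, -2.65 and -3.27. Without Bonn cortex the counts were 39, 36 and 39, with medians of -2.63, -1.82 and -2.61.

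The share of variation was then set out over 54 sums of 6 classes (B cells, T cells, resident macrophages, Malat+ macrophages, monocytes and conventional dendritic cells). For the 40 genes the facility took a median of 61.6% of the sum of squares of log2 CPM, the class 21.2%, their interaction 6.2% and the compartment 1.49%. Over all 8215 genes the medians were 13.8%, 30.9%, 10.7% and 1.07%. Facility took more than class in 34 of 40 genes, against 33.1% of all genes, and more than 50% in 30. It was highest for Ppp1r15a, which encodes the phosphatase subunit that restarts translation after stress, at 84.1%. All 9 heat shock genes ranged from 57.9% to 82.6%, and for Hspa1b facility took 82.6% and class 1.7%. Fos was at 67.9%, Jun at 67.8% and Klf6 at 80.8%. The 6 genes for which class took more were Ier3 (45.5% for class and 20.5% for facility), Ier5 (49.2% and 32.6%), Nr4a2 (41.7% and 40.6%), Dusp2 (57.1% and 23.7%), Dusp5 (49.1% and 35.3%) and Nfkbiz (66.7% and 21%). Dusp2 and Dusp5 are phosphatases induced in activated lymphocytes, and Nfkbiz is an atypical IkappaB protein of myeloid cells. Within single compartments the median facility share was 69.7% in cortex, 68.4% in OM and 56.6% in IM. The classes were drawn by the authors from the same cells' expression, so neither the class share nor the tests between classes that follow are independent of the clustering.

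**Figure D3:**
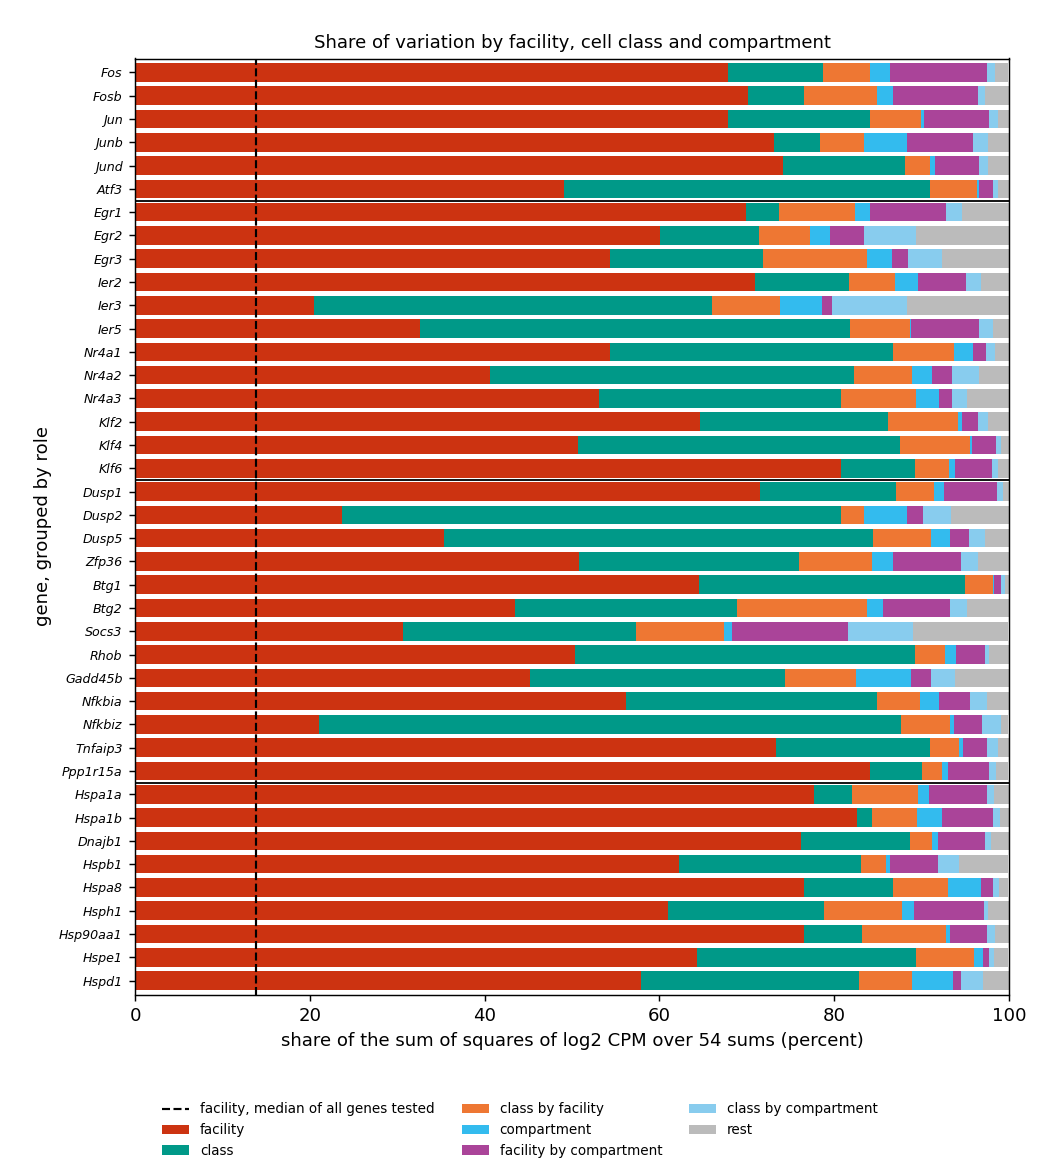
Stacked bars give, for each of the 40 genes, the percent of the sum of squares of log2 CPM over 54 sums taken by facility, class, compartment and their interactions. The dashed line is the median facility share of all genes, 13.8%, and the facility share of every gene shown lies above it, from 20.5% for Ier3 to 84.1% for Ppp1r15a.

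The members differed between cell types at shares near those of all genes, at 77.5%, 72.5% and 50% in the 3 pairs that follow. With the library as a block, 31 of 40 genes differed between resident macrophages and T cells (65.6% of all genes), 22 higher (32.7% of all genes) and 9 lower (32.9%) in macrophages. Between macrophages and B cells 29 differed (63.6%), 20 higher (32.3%) and 9 lower (31.3%) in macrophages. Between T and B cells 20 did (46.3%), 9 higher in T cells (24.0%) and 11 higher in B cells (22.4%). Without the block 16, 12 and 5 genes passed. The genes higher in macrophages than in T cells were led by Atf3, at 4.44 ± 0.30 (SE, edgeR adjusted p = 2.69e-12), and included Hspb1 at 3.43 ± 0.30, Ier3 at 3.12 ± 0.35, the macrophage transcription factor Klf4 at 2.77 ± 0.18, Nfkbiz at 2.49 ± 0.18 and Rhob, a small GTPase of endosomal traffic, at 2.21 ± 0.13. Fos was higher by 1.62 ± 0.22 and Jun by 1.55 ± 0.11. Those higher in T cells were Dusp5, at -3.93 ± 0.23 (SE, edgeR adjusted p = 1.05e-13), Nr4a2 at -3.60 ± 0.26, Dusp2 at -3.25 ± 0.17, Nr4a3 at -2.45 ± 0.30, Tnfaip3 at -2.04 ± 0.13, Nr4a1, Gadd45b, Btg1 and Junb.

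The NR4A receptors and the lymphocyte DUSP phosphatases were among the genes higher in T cells. Dusp5 gave 103, 79.3 and 120 CPM for Aachen, 38.1, 40.1 and 77.5 for Bonn and 420, 284 and 356 for Hamburg in T cells and 7.49, 5.12 and 2.02 CPM for Aachen, 3.71, 0 and 3.36 for Bonn and 23.8, 20.4 and 32.4 for Hamburg in macrophages, and each T cell library stood above the macrophage library of the same facility and compartment. Nr4a2 gave 257, 99.2 and 172 CPM for Aachen, 21.3, 23.4 and 104 for Bonn and 182, 157 and 206 for Hamburg in T cells and 1.87, 2.56 and 12.1 CPM for Aachen, 1.55, 1.94 and 3.36 for Bonn and 23.8, 28 and 21.6 for Hamburg in macrophages. Between lymphocytes, Nr4a2 (2.87 ± 0.25), Tnfaip3 (2.16 ± 0.13), Nr4a3 (2.12 ± 0.29) and Dusp5 (1.95 ± 0.19) were higher in T cells, while Egr3 (-2.38 ± 0.43), Klf4 (-1.81 ± 0.19), Klf2 (-1.49 ± 0.27) and Ier5 (-1.31 ± 0.13) were higher in B cells. Of the 9 heat shock genes Hspb1 alone differed between T and B cells, by -2.08 ± 0.31 (SE, edgeR adjusted p = 3.12e-06). The class with the highest mean was the macrophage for 21 genes in Aachen, 19 in Bonn and 26 in Hamburg. The share of all genes with their highest mean in macrophages was not counted. With Macrophage_1 left out, 11 genes were higher and 17 lower in macrophages than in T cells, and 8 higher and 17 lower than in B cells, where 64.2% and 62.9% of all genes passed in either direction. In the B cells of Bonn, Nr4a2 and Nr4a3 held fewer than 10 UMIs in every library.

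The difference between facilities was itself not equal in all classes. A test of class by facility passed for 23 of 40 genes between macrophages and T cells (5.19% of all genes), 16 between macrophages and B cells (3.58%) and 7 between T and B cells (2.12%), 28 genes in all. The gap between Bonn and Hamburg was estimated larger in macrophages for 21 of the 23 genes against T cells and 13 of the 16 against B cells, and larger in B cells for all 7 against T cells. Against T cells the log2 gap differed most for Ier3, by -3.13 ± 0.38 (SE), and for Nr4a3, by -3.05 ± 0.52, followed by Egr1 at -2.63 ± 0.50, Egr2 at -2.57 ± 0.57 and Fosb at -2.17 ± 0.33. Nr4a3 held 2, 1 and 3 UMIs in the Bonn macrophages of cortex, OM and IM, near the floor of the counts. Among heat shock genes Hsph1, an HSP110 exchange factor, differed by -1.78 ± 0.25 and Hspe1, the mitochondrial HSP10, by -1.58 ± 0.18. Hspe1 gave 1500, 894 and 817 CPM for Aachen, 192, 193 and 236 for Bonn and 2200, 1470 and 1760 for Hamburg in macrophages and 1060, 805 and 963 CPM for Aachen, 330, 351 and 312 for Bonn and 1200, 884 and 926 for Hamburg in T cells, which shows the wider fall between Hamburg and Bonn in macrophages. Atf3 went the other way and was the only gene to pass in all 3 pairs, with a gap in B cells larger than in macrophages by 2.71 ± 0.42, where the Bonn counts of T and B cells were near 0. Hspa1a (1.18 ± 0.27) and Hspa1b (0.95 ± 0.22) also had the larger gap in B cells. Without the OM libraries the test passed for 14, 4 and 0 genes, with an unadjusted p under 0.05 for 14 of the 40 genes in the last pair. The Bonn OM library held 168 macrophages and 118 T cells. Macrophage markers in T cells were highest in Aachen, as given above, and in B cells they stood at 6.61 to 28.7 per 10000 UMIs for Aachen, 4.51 to 7.53 for Bonn and 5.61 to 7.99 for Hamburg. Their part in these differences was not tested.

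**Figure D4:**
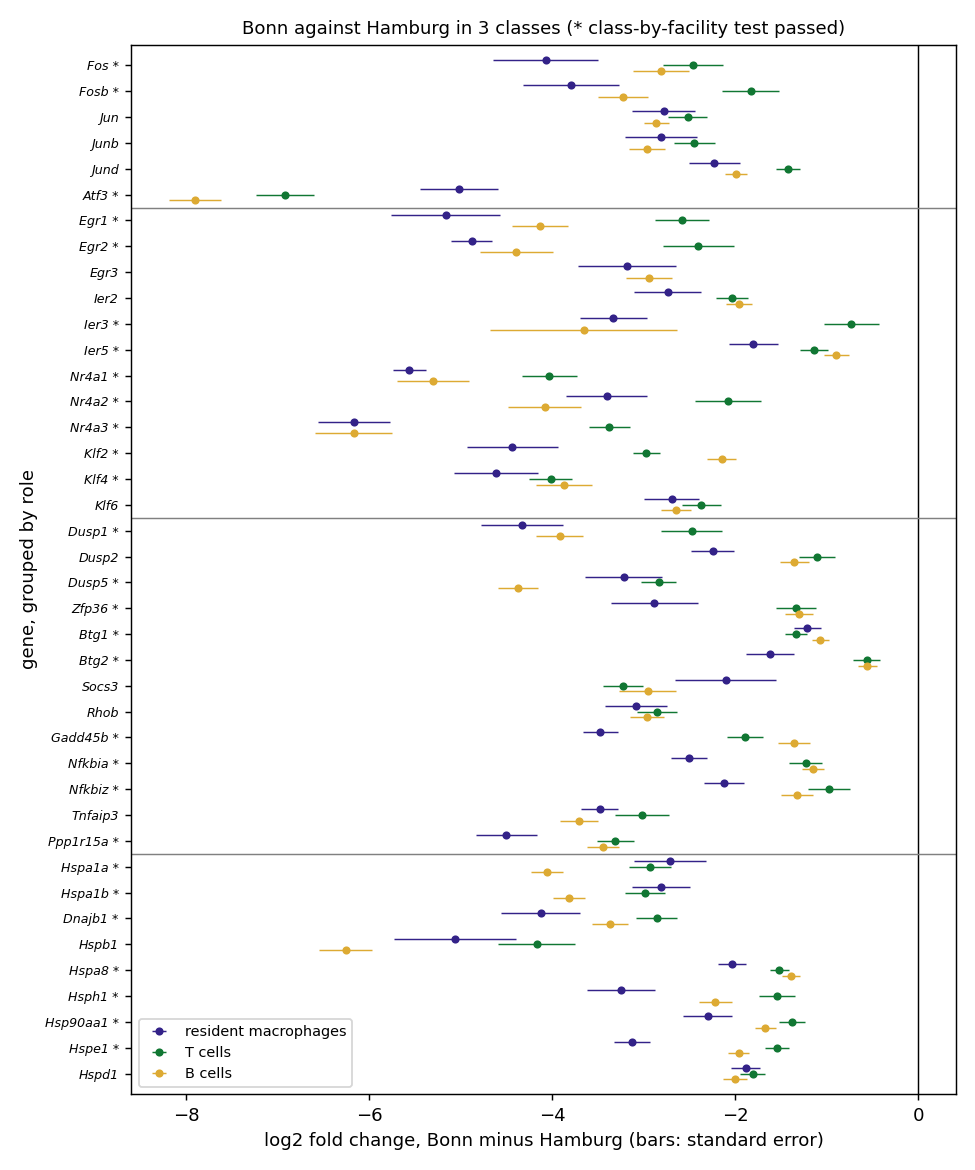
Log2 fold change between Bonn and Hamburg with its SE for the 40 genes in resident macrophages, T cells and B cells. An asterisk marks the 28 genes for which class by facility passed in any pair of classes. All points lie below 0, and the macrophage point is the lowest for 25 of the 39 genes tested in all classes.

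The compartments were compared within each class with the facility as a block. Medulla (OM and IM) against cortex passed for none of the 40 genes in macrophages, T cells or B cells by edgeR, where 1.24%, 0.0335% and 0.0898% of all genes passed. DESeq2 passed 0, 0 and 0. The unadjusted edgeR p was under 0.05 for 7, 2 and 4 of the members. Over all genes tested it was so for 878 of 8687, 514 of 8957 and 294 of 8911. In macrophages these 7 were Egr3 (2.47 on the log2 scale, medulla minus cortex), Socs3 (1.49), Egr2 (0.65), Dusp2 (-0.47), Hspa8 (-0.44), Hspe1 (-0.39) and Hspd1 (-0.33). Egr3 held 1, 6 and 5 UMIs in the macrophages of Bonn cortex, OM and IM. With OM and IM each set against cortex, no member passed by edgeR either, and the medians over the members had opposite signs. For OM they were -0.247, -0.105 and -0.175 in macrophages, T cells and B cells, and for IM 0.267, 0.094 and 0.107. The unadjusted edgeR p was under 0.05 for 7, 5 and 10 members with OM (899, 514 and 382 of all genes). With IM it was so for 7, 2 and 5 (623, 372 and 193). The library with the highest level differed between facilities and classes, which was not tested. The cortex library was the highest of Aachen for 29 genes in macrophages (37.5% of all genes) and 32 in T cells (36.1%). In Aachen B cells IM was the highest for 20 genes (32.0%) and cortex for 15 (34.7%). Hamburg had its highest level in cortex for 24 genes in macrophages (38.4%), 28 in T cells (44.4%) and 24 in B cells (38.9%), whereas IM was the highest of Bonn for most. Without Bonn, 9 genes were lower in the medulla in macrophages (0.675% of all genes) and 3 in T cells (0.413%, both shares counted in either direction), and the median over the 40 genes in macrophages moved from 0.0209 to -0.405.

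Within the classes the authors' clusters held the same order of facilities, given as a description because these genes were among those clustered. Of 23 clusters, 20 had at least 20 cells in each facility. The immediate early and feedback genes were lowest in Bonn, intermediate in Aachen and highest in Hamburg in 19 of the 20, and the heat shock genes in 18. The ratio of Hamburg to Bonn ran from 1.28 in neutrophils to 9.59 in cDC1, with a median of 4.57, for the first group, and from 2.09 in Isg+ macrophages to 6.07 in Malat+ macrophages, with a median of 3.92, for the second. Macrophage_1 was the highest of the 4 resident macrophage clusters for 35 genes in Aachen, 34 in Bonn and 34 in Hamburg. The share of all genes that were highest in Macrophage_1 was not counted, so these counts have no background beside them. In Macrophage_1 the immediate early and feedback genes took 349 per 10000 UMIs in Aachen, 191 in Bonn and 681 in Hamburg, and in Macrophage_2 they took 107, 42.4 and 362. Hamburg cells of Macrophage_2 thus stood above Bonn cells of Macrophage_1. Of the 40 genes, 40 were lower in Bonn than in Hamburg macrophages without Macrophage_1, with a median of -3.06.

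**Figure D5:**
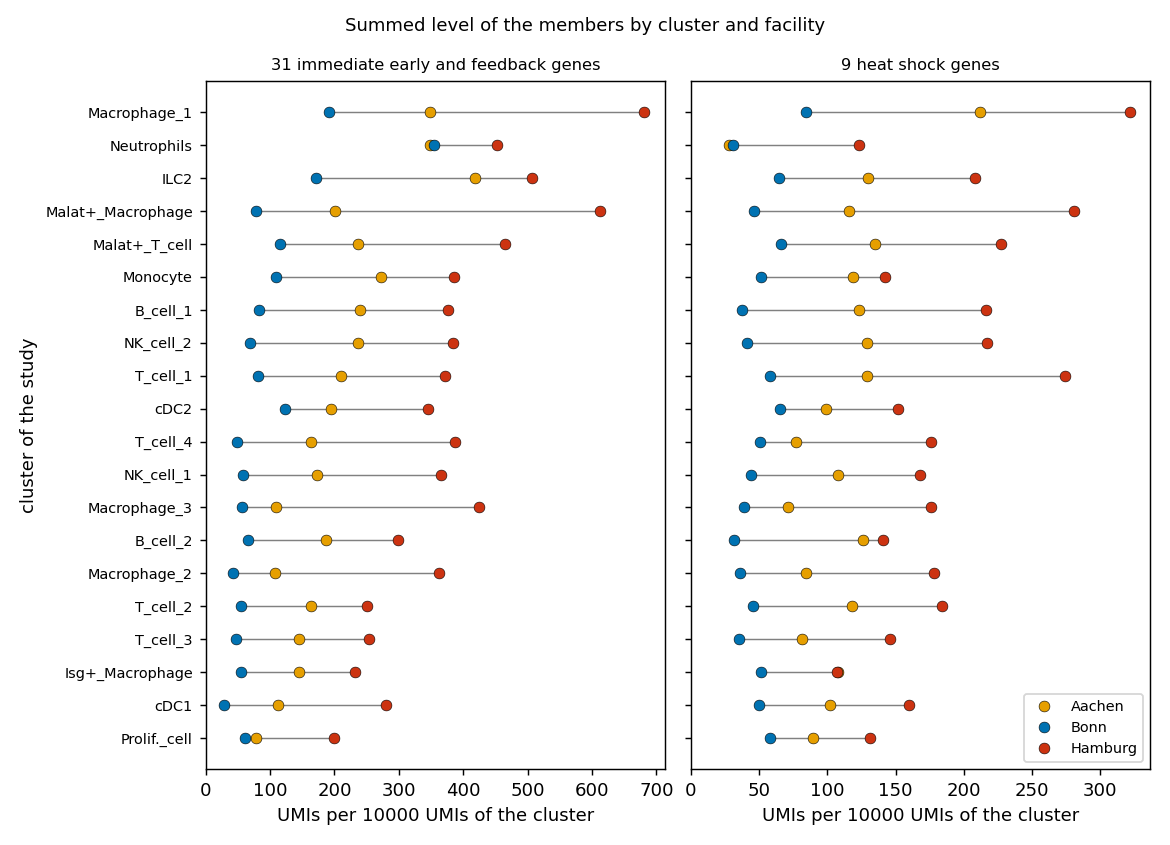
Summed UMIs per 10000 of the 31 immediate early and feedback genes and of the 9 heat shock genes in the 20 clusters with at least 20 cells in each facility. Points are facilities, each over all its cells of the cluster. Bonn is the lowest point in all clusters shown except the neutrophils.

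At equal depth the medians of single cells kept the order of facilities, apart from a tie between IM heat shock medians in B cells. Single cells overlapped between facilities. After each cell was thinned to 500 UMIs, which left out 814 shallower cells, the median macrophage held 13.5, 7 and 6 UMIs of the immediate early and feedback genes in cortex, OM and IM of Aachen, 2, 2 and 4 in Bonn, while Hamburg macrophages held 27, 24 and 26. A median T cell held 10, 6 and 8 UMIs in the Aachen libraries, 2, 3 and 4 in those of Bonn and 16, 14 and 13 in those of Hamburg. For the heat shock genes the median macrophage held 9, 4 and 5, then 1, 2 and 2, then 13, 10 and 12. For the first group the median B cell held 14, 8 and 13, then 3, 4 and 4, then 19, 16 and 16. For the heat shock genes it held 6, 5 and 7, then 1, 2 and 2, then 8.5, 8 and 7. IM was thus level between Aachen and Hamburg. B cells without a heat shock UMI made up 2.13, 3.85 and 1.82% in Aachen. They made up 20.1, 17.8 and 18.9% in Bonn and 5.95, 9.44 and 9.88% in Hamburg. Sums of the thinned cells gave 37, 37 and 39 genes lower in Bonn than in Hamburg in macrophages, T cells and B cells, where 7.19%, 11% and 20.8% of all genes passed in either direction.

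Genes outside the 40 that belong to the same pathways moved in part with them. Of 34 other immediate early genes, 24 of the 30 tested were lower in Bonn than in Hamburg macrophages (median of those tested -1.76), 28 of 32 in T cells and 28 of 32 in B cells. For this and the lists below, the background is the share of all genes lower in Bonn. It was 8.33% in macrophages, 10.9% in T cells and 12.8% in B cells, with 12.8%, 19.0% and 22.3% differing in either direction. Of the 26 other chaperones and heat shock factors tested, 10 were lower and 1 higher in macrophages (median -0.355), 13 were lower in T cells and 12 lower and 1 higher in B cells. Dnaja1, another HSP40, was lower in macrophages, at -2.60 on the log2 scale, and St13, an HSP70 cochaperone, did not pass, at -0.13 (edgeR adjusted p = 0.726). Both cold-inducible RNA-binding genes, Rbm3 and Cirbp, were lower in Bonn in all 3 classes, with medians of -1.41, -1.08 and -1.06. Integrated stress response genes were lower for 3 of the 5 tested in each class. Macrophage activation genes, a list of cytokines and chemokines with Nlrp3, Cd83 and Icam1, were lower for 13 of 14 in macrophages (median -3.68), 4 of 11 in T cells and 6 of 7 in B cells. Il1b gave 864, 573 and 427 CPM in Aachen macrophages, 206, 252 and 496 in Bonn and 3070, 2980 and 3210 in Hamburg. In the opposite direction, 12 of 15 genes of RNA quality (mitochondrial transcripts, Malat1 and Neat1) were higher in Bonn than in Hamburg macrophages. So were 4 of the 5 T cell markers tested. The share of all genes higher in Bonn is not given apart from the 12.8% that differed in either direction in macrophages. The median mitochondrial percent per cell was 1.64 to 2.1 in Bonn macrophages and 0.655 to 0.754 in those of Hamburg. The part of either list in the differences was not tested.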

How the data were processed

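The authors' table holds expected counts: deposited UMI counts per gene and cell that were whole in every nonzero value in Aachen and Bonn and in 0.118% of the nonzero values in Hamburg, for which the kind of correction is not given in the sources used here. The submitters' processing notes name Cell Ranger, Seurat and the mm10 build, without versions. Cluster names, compartment and facility are the authors' columns. No per-sample column had to be left out.

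Counts were summed per library for resident macrophages, T cells and B cells, and for classes with at least 20 cells per library, and rounded to whole numbers. The sums were tested with edgeR 4.0.16 (quasi-likelihood F test, TMM, filterByExpr, Benjamini-Hochberg threshold 0.05, limma 3.58.1, R 4.3.3) over all genes: facility within each class, medulla against cortex with facility as a block, class with library as a block, and class by facility. CPM are scaled by TMM over the 27 sums, and log2 CPM in the partition of variation carry a prior count of 2. Compartments are paired through the facility that prepared them and classes through the library they share, which the table's own columns give.

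Alternatives were RLE factors, DESeq2 1.42.0, no filter on low counts, no block, cells thinned to 500 UMIs, Hamburg values raised to whole numbers, cells with at least 2 UMIs of another class's markers left out (2432 cells), Macrophage_1 left out, and each facility or compartment left out. No doublet caller was run. Leaving out Bonn cortex or Bonn IM and splitting the Aachen cells by barcode suffix were chosen after seeing the data. The 40 genes, the lists and the tests were chosen with earlier results of these data known. Genes named with values were the 3 with the highest mean CPM of each role, members that passed class by facility or compartment tests, up to 4 of each other list with the smallest adjusted p between facilities in macrophages, and members that a comparison of the report turns on, the last chosen after their values were seen. Scripts ran in Python 3.11.15 and were tested on simulated data. Counting intervals cover counting error only.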

Additional observations from a re-analysis of the deposited data

Results flagged for a closer look

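Each result here is a difference between facilities that was itself different in a pair of cell classes, by edgeR's test of class by facility over all genes. The values are adjusted p, and the size of each difference between Bonn and Hamburg is drawn in the plot of log2 fold changes. The fit held the 27 sums of the 3 classes.

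Between resident macrophages and T cells the adjusted p was 1.98e-06 for Hspe1, 3e-06 for Ier3, 1.74e-05 for Hsph1, 2.38e-05 for Dusp1, 2.63e-05 for Nfkbiz, 8.57e-05 for Fosb, 9.71e-05 for Gadd45b and 0.000263 for Ppp1r15a by edgeR. It was 0.000675 for Nfkbia, 0.00068 for Nr4a2, 0.000703 for Nr4a3, 0.00282 for Egr1, 0.00295 for Fos, 0.00494 for Nr4a1, 0.00684 for Egr2 and Atf3, 0.00687 for Zfp36 and 0.00693 for Hsp90aa1. For Klf2 (0.0177), Btg2 (0.0182), Dnajb1 (0.0198), Btg1 (0.0203) and Klf4 (0.0267) it lay closest to the threshold. For Btg1 the Bonn to Hamburg gap was nearly equal in both classes, and the call came with the Aachen levels.

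Between resident macrophages and B cells the edgeR adjusted p was 0.000143 for Gadd45b, 0.000184 for Hspe1, 0.00072 for Nfkbia, 0.000822 for Atf3, 0.00132 for Klf2, 0.00294 for Ppp1r15a, 0.00377 for Hsph1 and 0.00975 for Nfkbiz. It was 0.0123 for Hspa8, 0.0142 for Btg2, 0.0156 for Zfp36, 0.0182 for Ier5, 0.0184 for Fos, 0.0285 for Hspa1b, 0.0309 for Hspa1a and 0.0352 for Nr4a1.

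Between T cells and B cells the edgeR adjusted p was 0.00179 for Nr4a3, 0.00484 for Dusp1, 0.011 for Nr4a2, 0.018 for Atf3, 0.0192 for Dusp5, 0.0435 for Hspa1a and 0.0486 for Fosb. Macrophage markers in T cells also differed between facilities, being 13.5 to 36.8 per 10000 UMIs in Aachen and at most 2.03 in Bonn and Hamburg, and those in B cells 6.61 to 28.7 in Aachen and at most 7.99 elsewhere. Their part in these differences was not tested.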

How the results depend on the processing

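The counts of genes lower or higher between facilities within a class kept within 1.5 times of their value under every alternative run, except Aachen minus Hamburg in T cells, which passed 26 genes with no filter on low counts in place of 17. Bonn minus Hamburg passed 39, 36 and 40 genes in macrophages, T cells and B cells by DESeq2, and 40, 38 and 40 with Hamburg values raised to whole numbers. For medulla against cortex the count was 5, 2 and 4 genes with no filter, 1 in macrophages without Macrophage_1 and 1 without Bonn IM. With each facility left out in turn it ranged from 0 to 9 in macrophages (9 without Bonn, 3 without Aachen), from 0 to 3 in T cells (3 without Bonn) and from 0 to 1 in B cells (1 without Hamburg). The pairing was through the shared library or facility: with no replicate block the class comparisons passed 16 genes between macrophages and T cells, 12 between macrophages and B cells and 5 between T and B cells, in place of 31, 29 and 20, and with no block medulla against cortex kept its count. The counts in this paragraph are of the 40 genes, without the share of all genes under each alternative. A change in calls over all genes is therefore not set apart. Class by facility passed 29 genes between macrophages and B cells and 19 between T and B cells with no filter. It passed 15 between T and B cells without cells holding markers of another class. With each compartment left out it ranged from 14 to 28, from 4 to 24 and from 0 to 13 genes in the 3 pairs (14 with an unadjusted p under 0.05 where it was 0, DESeq2 not run there), the lowest each time without OM and the highest without cortex, and the cause was not tested. The median share of variation taken by facility was 69.9% over the 3 main classes only and 45.3% over Aachen and Bonn only, in place of 61.6%.

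The direction turned for 11 single values. Without Macrophage_1 the log2 difference between macrophages and T cells was -0.147 for Fosb, -0.17 for Jund, -0.0851 for Hspa8, -0.0461 for Klf6, -0.103 for Nfkbia, -0.117 for Hsp90aa1 and -0.225 for Egr1, and between macrophages and B cells -0.211 for Fosb and -0.116 for Hsp90aa1. With each facility left out in turn it ranged between macrophages and T cells from -0.0526 to 1.75 for Egr2 and from -0.0345 to 0.678 for Nfkbia, with the negative values without Hamburg. The causes were not tested. Depth limits 8 levels for which every Bonn library held fewer than 10 UMIs: Atf3 in T and B cells, Egr2, Ier3, Nr4a2 and Nr4a3 in B cells, and Egr3 and Nr4a3 in macrophages. Only Bonn levels were counted in this way. Levels of the shallower Aachen libraries were limited too. Aachen B cells held 0, 0 and 1 UMIs of Egr3 in cortex, OM and IM, 0, 1 and 0 of Nr4a3, and 0, 4 and 3 of Ier3.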

Other observations

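Clusters outside the 3 tested classes were not tested, and their values over all cells of a facility are given. In neutrophils, of which there were 25 cells in Aachen, 51 in Bonn and 197 in Hamburg, the immediate early and feedback genes took 349, 355 and 453 per 10000 UMIs, the narrowest range of the clusters with 20 cells in each facility. The heat shock genes of the same cells took 27.7, 30.6 and 123. Junb stood at 33.4, 47 and 40.6 per 10000 in the neutrophils of Aachen, Bonn and Hamburg, Zfp36 at 9.23, 37.2 and 30.2, and Dusp1 at 28.4, 34.2 and 42.8, while Btg1 was at 68.1, 15.5 and 19.4.

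In group 2 innate lymphoid cells (ILC2) the immediate early and feedback genes took 418 per 10000 UMIs in Aachen, 171 in Bonn and 507 in Hamburg. In proliferating cells they took 78.4, 61.3 and 200, and in cDC1, the dendritic cells that cross-present antigen, 113, 29.2 and 280. The cDC1 of Hamburg thus lay below the ILC2 of Aachen, and the ILC2 of Bonn lay above the proliferating cells of Aachen.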
